A study of Homo sapiens with 38 samples.

Results

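CASTOR1 and 9 further genes of amino acid sensing upstream of mTORC1 were followed by RNA sequencing in HCT116 cells in which the paralogs VPS4A and VPS4B had been silenced. The 10 genes were SESN2, RRAGC, RRAGD, FLCN, FNIP1, FNIP2, LAMTOR1, DEPDC5 and RPTOR beside CASTOR1, found by symbol among the 12627 genes of the deposited table, of which 12474 had a RefSeq symbol. All 10 were present. CASTOR1 was selected on its measured rise with both single VPS4B duplexes over NT and siCTRL#1, and the 9 others were chosen by their place in the pathway with results of these data already known. CASTOR1 is therefore described without a test wherever NT, siCTRL#1, siVPS4B#1 or siVPS4B#2 libraries take part, and no p is given for any of the 10 genes in the comparisons of a single VPS4B duplex with NT or siCTRL#1.

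HCT116 is a human colorectal carcinoma cell line of epithelial origin, and VPS4A and VPS4B are the ATPases of the ESCRT machinery, which remodels membranes at endosomes, lysosomes and the nuclear envelope. Cells were collected 72 h after transfection in 9 conditions. NT cells were not transfected, siCTRL#1 cells received 60 nM of a non-targeting duplex, and siCTRL#2 is a second non-targeting duplex whose dose the labels do not give. In the single conditions (siVPS4A#1, siVPS4A#2, siVPS4B#1 and siVPS4B#2), 30 nM of the on-target duplex was given with 30 nM of siCTRL#1. In the combined conditions both on-target duplexes were given at 30 nM each, siVPS4A#2 with siVPS4B#1 in siVPS4A+B#1 and siVPS4A#1 with siVPS4B#2 in siVPS4A+B#2. The pairs held no siCTRL#1, so a pair differs from a single condition, or from siCTRL#1, in that duplex as well. Each condition had 4 libraries and siCTRL#1 had 5, or 37 libraries in all, and the labels tie the replicate numbers 1 to 5 to batches a to e. The library labelled siVPS4A#1 replicate 2, with 669257 reads against at least 5090666 in every other library, was left out. All libraries come from 1 cell line, so the values describe HCT116 and no other cells, and p-values measure the spread between these libraries.

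mTORC1 is a kinase complex that promotes growth when nutrients are plentiful. It is brought to the surface of the lysosome by the Rag GTPases, which the Ragulator complex anchors there, and is switched on by RHEB. Amino acid sensors feed into this step through the opposing complexes GATOR1, which turns the Rag GTPases off, and GATOR2, which restrains GATOR1. CASTOR1 senses cytosolic arginine and SESN2 senses leucine, and both hold GATOR2 back when their amino acid is scarce. Folliculin (FLCN) with its partners FNIP1 and FNIP2 acts on RRAGC and RRAGD, and through them governs whether the transcription factors TFEB and TFE3 stay in the cytosol.

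TFEB and TFE3 read sequences built around the E-box CACGTG, and many genes of lysosomes and of the Rag branch carry one. The 250 bases before the annotated start were therefore searched on both strands in the RefSeq promoters (GRCh38.p14), which held an entry for 9 of the 10 genes. RRAGD had no entry and was not searched. The promoter of CASTOR1, the gene selected on its measured rise, is shown beside the 3 genes whose windows held an E-box, RRAGC, FNIP1 and LAMTOR1. Each is written 5′ to 3′ on the strand of the gene, ending at the base before the start, with the E-box in capitals.
CASTOR1, chr22:30289506-30289755, minus strand: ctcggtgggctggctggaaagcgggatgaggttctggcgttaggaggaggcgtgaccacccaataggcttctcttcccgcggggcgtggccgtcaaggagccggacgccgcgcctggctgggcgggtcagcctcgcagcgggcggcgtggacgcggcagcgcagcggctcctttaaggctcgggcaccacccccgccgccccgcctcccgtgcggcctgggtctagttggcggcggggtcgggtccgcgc
RRAGC, chr1:38859773-38860022, minus strand: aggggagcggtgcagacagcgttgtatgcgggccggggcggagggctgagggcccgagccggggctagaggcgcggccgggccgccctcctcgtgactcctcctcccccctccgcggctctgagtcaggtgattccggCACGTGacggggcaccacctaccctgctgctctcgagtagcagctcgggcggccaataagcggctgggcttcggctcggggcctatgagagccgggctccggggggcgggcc
FNIP1, chr5:131797018-131797267, minus strand: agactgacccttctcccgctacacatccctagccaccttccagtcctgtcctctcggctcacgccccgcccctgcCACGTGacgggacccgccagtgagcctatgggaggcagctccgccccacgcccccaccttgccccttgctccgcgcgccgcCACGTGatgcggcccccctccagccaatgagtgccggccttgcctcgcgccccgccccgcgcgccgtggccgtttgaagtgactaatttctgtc
LAMTOR1, chr11:72103298-72103547, minus strand: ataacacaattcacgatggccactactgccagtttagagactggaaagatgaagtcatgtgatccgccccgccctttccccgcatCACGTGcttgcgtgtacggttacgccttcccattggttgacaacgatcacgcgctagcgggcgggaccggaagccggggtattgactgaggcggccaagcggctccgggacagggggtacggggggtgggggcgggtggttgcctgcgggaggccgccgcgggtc

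CACGTG stood in 6.34% of the 35116 promoter windows of this length in the RefSeq table. The E-box of RRAGC began 112 bases before the start, those of FNIP1 175 and 94 bases before it, and that of LAMTOR1 165 bases before it. Each of these 4 E-boxes, read on one strand or the other, was followed by an A, as in CACGTGA, which overlaps CACGTG by construction and stood in 3.31% of windows. The CASTOR1 window held none of the motifs searched. The ATF4 composite element TGATGNAA, present in 3.14% of windows, was in none of the members' windows, and the AP-1 site TGANTCA, present in 6.57%, was in that of RRAGC alone. A motif here is a match of letters, and binding was not measured.

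The silenced genes followed the labels. Levels are given in CPM, reads per 1000000 reads of a library after TMM scaling. VPS4A fell from 248.5 ± 55.0 (SD, n = 4) CPM in NT cells to between 2.19 and 20.0 in the 4 conditions with a VPS4A duplex, and VPS4B from 22.2 ± 5.44 (SD, n = 4) to between 0.43 and 1.29 in the 4 with a VPS4B duplex. Library sizes ran from 5090666 to 11035293 reads with a median of 7561496. Before TMM scaling, a floor of 3 reads lay at or under 0.589 reads per 1000000 in every library, below every value of the 10 genes. All 6 epithelial markers looked up were present, with a summed level of 4464 to 8331 CPM. Of the 5 fibroblast markers the 2 in the table summed to 51.4 to 85.4 CPM in siVPS4A+B#2 and 34.2 to 61.2 in siVPS4A#1, against 8.12 to 15.4 in NT and 15.9 to 32.1 in siCTRL#1. This was nearly all COL1A1, while PDGFRB stayed at or under 1.10, and its part in the results was not tested. For 7 of the 10 genes the annotation lists another protein-coding gene across part of their span, among them LRTOMT on the opposite strand of LAMTOR1 and MPRIP on that of FLCN. Reads were aligned to the transcripts of the panel and counted with the default options of HTSeq, which take strand into account. Some overlaps, as for CASTOR1, FNIP1, DEPDC5 and RPTOR, are on the same strand, where strand does not separate genes. The effect of the overlaps on the counts was not tested. None of the 4 haematopoietic markers looked up was found in the table, and of the endothelial ones PECAM1 was (0 to 1.75).

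CASTOR1 (NM_001037666), on the minus strand of chromosome 22 at 30681106 to 30685611 of GRCh37, had the widest range of the 10 genes. Its condition means in CPM spanned an 11.8-fold range from NT to siVPS4A#1. CASTOR1 was selected for its rise over NT and siCTRL#1, so part of this range follows from that choice. In the 4 NT libraries it stood at 2.28, 2.02, 3.60 and 4.04, in the 4 siCTRL#2 libraries at 4.18, 4.98, 5.87 and 4.47, and in the 5 siCTRL#1 libraries at 9.09, 8.78, 11.9, 10.9 and 11.4. The controls therefore did not overlap one another, with NT lowest and siCTRL#1 highest.

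After single VPS4B silencing CASTOR1 stood at 17.7, 23.6, 24.3 and 27.5 CPM with siVPS4B#1, and at 18.9, 27.8, 20.4 and 17.6 with siVPS4B#2. After single VPS4A silencing it stood at 25.4, 44.6, 32.5 and 37.9 with siVPS4A#1 but at 6.35, 7.53, 12.1 and 8.76 with siVPS4A#2, which overlapped siCTRL#1. Combined silencing gave 21.5, 20.7, 21.6 and 16.9 with siVPS4A+B#1 and 27.6, 32.5, 44.4 and 35.2 with siVPS4A+B#2. All 8 libraries of combined silencing and all 8 of single VPS4B silencing were above all 13 control libraries, as were the 4 siVPS4A#1 libraries, and of the siVPS4A#2 libraries 1 of 4 was.

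**Figure D1:**
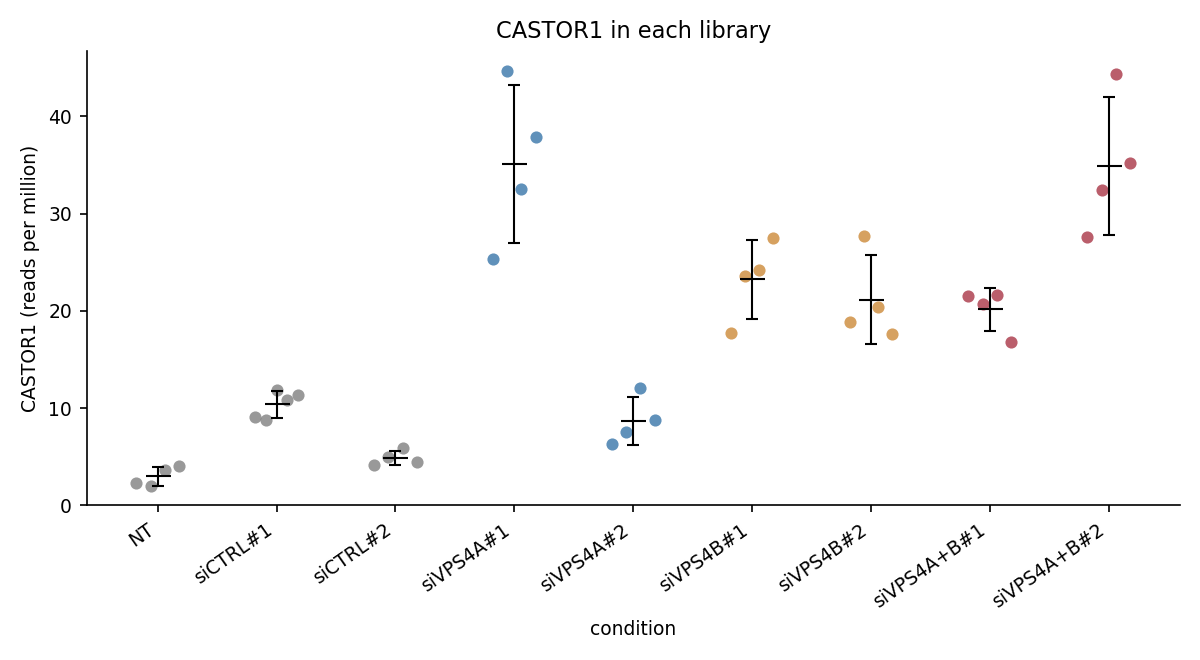
CASTOR1 in CPM (TMM-scaled, linear axis from 0) for each library, by condition; dots are libraries, horizontal bars means and whiskers SD. The NT libraries sit lowest at 2.02 to 4.04, and siVPS4A#1 and siVPS4A+B#2 have the highest means, with libraries at 25.4 to 44.6.

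Ordered by mean, CASTOR1 rose from NT (2.98 ± 0.99) through siCTRL#2 (4.88 ± 0.74), siVPS4A#2 (8.67 ± 2.46), siCTRL#1 (10.4 ± 1.38), siVPS4A+B#1 (20.2 ± 2.25), siVPS4B#2 (21.2 ± 4.54), siVPS4B#1 (23.3 ± 4.08) and siVPS4A+B#2 (34.9 ± 7.05) to siVPS4A#1 (35.1 ± 8.16; SD, n = 4 each and n = 5 for siCTRL#1). The neighbours siVPS4A#2 and siCTRL#1 overlapped. So did siVPS4A+B#1, siVPS4B#2 and siVPS4B#1 among themselves, and siVPS4A+B#2 with siVPS4A#1. All other neighbours in this order were apart.

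As a description, with no test, CASTOR1 was 1.12 ± 0.16 (SE) log2 units above siCTRL#1 with siVPS4B#1 and 0.98 ± 0.16 above it with siVPS4B#2. The same difference was 0.93 ± 0.16 with siVPS4A+B#1, 1.68 ± 0.16 with siVPS4A+B#2, 1.63 ± 0.16 with siVPS4A#1 and -0.23 ± 0.16 with siVPS4A#2. The choice of control set much of the size, because siCTRL#1 itself lay 1.51 ± 0.16 above NT. Against NT the differences were 2.44 with siVPS4A+B#1 and 3.19 with siVPS4A+B#2.

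In libraries that had no part in its selection, 6 comparisons of CASTOR1 were tested. VPS4B silencing added to siVPS4A#2 raised CASTOR1 from 8.67 to 20.2 CPM, a log2 fold change of 1.16 ± 0.16 (SE), with an exact permutation p of 0.0286 and an adjusted p of 0.0343 over the 6 comparisons. That p is the smallest that 4 against 4 libraries allow, and limma's adjusted p over all genes was 3.78e-07. Across all genes 23.5% were called in this comparison, a call being a fold change of at least 1.5 with limma's adjusted p under 0.05.

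VPS4B silencing added to siVPS4A#1 left CASTOR1 at 34.9 against 35.1 CPM. The log2 difference from limma was 0.05 ± 0.17 (SE) with an adjusted p of 0.854, and the exact permutation p was 1.0, with the groups overlapping. Here 17.5% of all genes were called. The VPS4A duplex that alone raised CASTOR1 thus showed no detectable further rise, and the one that alone left it near siCTRL#1 showed one.

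Against siCTRL#2 the log2 fold changes were 2.55 ± 0.17 with siVPS4A#1, 0.69 ± 0.16 with siVPS4A#2, 1.85 ± 0.16 with siVPS4A+B#1 and 2.60 ± 0.16 with siVPS4A+B#2. In none of these did the groups overlap, and each had the permutation p of 0.0286 (adjusted 0.0343), with limma's adjusted p between 2.40e-16 and 0.00113. The share of all genes called was 29.9%, 17.2%, 26.9% and 32.6% in the same order, so calls against this control were common. CASTOR1 counts as called with siVPS4A#2 against siCTRL#2 although its level with siVPS4A#2 was no higher than with siCTRL#1. With siCTRL#1 alone CASTOR1 was already above siCTRL#2, at 10.4 against 4.88 CPM and without overlap. The single conditions also held 30 nM of siCTRL#1, so here its effect cannot be told apart from that of the VPS4A duplex. These comparisons share the same siCTRL#2 libraries.

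The duplexes also differed from each other. CASTOR1 was 1.85 ± 0.17 (SE) log2 units higher with siVPS4A#1 than with siVPS4A#2 (limma, adjusted p = 2.25e-11), where 22.2% of all genes were called. It was 0.75 ± 0.16 higher with siVPS4A+B#2 than with siVPS4A+B#1 (limma, adjusted p = 0.000503), where 17.4% were called, and the libraries of neither comparison overlapped. The remaining VPS4A also differed between these conditions, at 2.19 ± 0.90 CPM with siVPS4A#1 and 7.88 ± 2.22 with siVPS4A#2, and at 20.0 ± 10.6 with siVPS4A+B#1 and 5.03 ± 1.96 with siVPS4A+B#2 (SD, n = 4). Its part in the CASTOR1 difference was not tested.

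SESN2 (NM_031459), the leucine sensor and a stress-inducible gene on chromosome 1 (28586029 to 28609002, plus strand), rose in both combined conditions. With siVPS4A+B#1 its 4 libraries held 121.0, 82.0, 143.1 and 177.6 CPM and with siVPS4A+B#2 133.8, 158.0, 190.4 and 111.3. The siCTRL#1 libraries held 92.6, 78.4, 43.4, 93.7 and 58.3. The siVPS4A+B#2 libraries were all above siCTRL#1, and those of siVPS4A+B#1 were above it except replicate 2, which was within its range.

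Over siCTRL#1 the log2 fold change of SESN2 was 0.80 ± 0.26 (SE) with siVPS4A+B#1 (limma, adjusted p = 0.0128) and 1.01 ± 0.26 with siVPS4A+B#2 (adjusted p = 0.00143). Of all genes 22.1% and 28.7% were called in these comparisons. SESN2 was higher within all 4 replicate numbers in both. The call with siVPS4A+B#1 rested on replicate 3, since without it the change was 0.55 with limma's adjusted p of 0.133.

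The means of SESN2 were lower with the single duplexes. The siVPS4A#1 libraries were close together at 92.2, 102.0, 99.99 and 97.6 CPM, a change of 0.45 over siCTRL#1 that was not called, and the siVPS4A#2 libraries held 92.8, 82.1, 51.1 and 57.0. As a description, the changes over siCTRL#1 were -0.11 ± 0.26 with siVPS4B#1 and 0.17 ± 0.26 with siVPS4B#2. SESN2 was called when VPS4B silencing was added to siVPS4A#2 (0.87 ± 0.26, limma adjusted p = 0.00844), when VPS4A silencing was added to siVPS4B#1 (0.91 ± 0.26, adjusted p = 0.0143) and when it was added to siVPS4B#2 (0.83 ± 0.26, adjusted p = 0.0105). It was not called when VPS4B silencing was added to siVPS4A#1 (0.56 ± 0.28, adjusted p = 0.133), although the libraries did not overlap. Without the replicate block the adjusted p was 0.0543 when VPS4A silencing was added to siVPS4B#1. The share of all genes called was 9.88% when VPS4A silencing was added to siVPS4B#1 and 25.7% when it was added to siVPS4B#2.

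SESN2 also varied with the replicate number. In NT it ranged from 41.3 in replicate 3 to 176.3 in replicate 1, and in siCTRL#2 replicate 1 stood at 115.1 with the others at 37.7 to 42.3. In 5 of the 8 conditions that had replicates 1 to 4, replicate 1 was the highest. The NT and combined libraries overlapped, although limma with the replicate block called the rise over NT in both pairs (0.74 ± 0.26, adjusted p = 0.0219, and 0.95 ± 0.26, adjusted p = 0.00324). Without the block the adjusted p for siVPS4A+B#1 was 0.0637. Replicate 1 of both pairs was below replicate 1 of NT, while replicates 2 to 4 were above theirs. Without replicate 3 neither rise over NT was called, at 0.41 (adjusted p = 0.285) and 0.55 (adjusted p = 0.135).

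Among the genes that recruit mTORC1 to the lysosome, RRAGC (NM_022157; chromosome 1, 39303870 to 39325444, minus strand), which pairs with RRAGA or RRAGB in the active Rag dimer, was lowest in NT and highest in combined silencing. It held 5.55, 6.41, 6.59 and 8.29 CPM in NT, 12.8, 8.21, 19.0 and 11.6 with siVPS4A+B#1 and 13.4, 11.3, 17.8 and 15.0 with siVPS4A+B#2. The siVPS4A+B#2 libraries were all above NT, and those of siVPS4A+B#1 were above it except replicate 2. The log2 fold change over NT was 0.81 ± 0.21 (SE; limma, adjusted p = 0.00171) and 0.99 ± 0.21 (adjusted p = 0.000144).

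Over siCTRL#1 RRAGC was not called, with changes of 0.32 ± 0.20 (limma, adjusted p = 0.214) and 0.51 ± 0.20 (adjusted p = 0.0371, under the 1.5-fold limit). Replicate 2 of siCTRL#1, at 14.1, was the highest of the 5 siCTRL#1 libraries. Without replicate 2 both changes were called, at 0.65 and 0.75. RRAGC was also higher than in NT with siVPS4A#1 (0.72 ± 0.22, limma adjusted p = 0.00804) and with siCTRL#2 (0.67 ± 0.21, adjusted p = 0.0124), so it was also higher in cells with both paralogs.

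RRAGD (NM_021244; chromosome 6, 90074335 to 90121992, minus strand), the paralog of RRAGC, moved little. Its condition means lay between 30.9 and 42.3 CPM, a 1.37-fold range, and every neighbour in their order overlapped. Combined silencing changed it by 0.13 ± 0.13 and 0.29 ± 0.13 log2 units over siCTRL#1, neither of which was called, although it was higher within all 4 replicate numbers in both pairs.

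LAMTOR1 (NM_017907; chromosome 11, 71796941 to 71814343, minus strand), the lipid-anchored subunit that holds Ragulator at the lysosome, was the member whose condition means were most like those of CASTOR1. It stood at 150.3, 177.1, 137.9 and 178.9 CPM with siVPS4A#1 and at 168.9, 161.6, 136.4 and 145.0 with siVPS4A+B#2. The siCTRL#1 libraries held 114.3, 94.4, 122.1, 107.0 and 109.1, below all 8 of these. The changes over siCTRL#1 were 0.54 ± 0.12 (SE; limma, adjusted p = 0.000308) and 0.50 ± 0.12 (adjusted p = 0.000698), both under the 1.5-fold limit.

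LAMTOR1 with siVPS4A+B#1 was at 140.7, 113.0, 122.1 and 95.1 CPM, overlapping siCTRL#1, with a change of 0.12 ± 0.12. Over NT it was called with siVPS4A#1 (0.72 ± 0.13, limma adjusted p = 1.93e-05) and with siVPS4A+B#2 (0.68 ± 0.12, adjusted p = 1.74e-05). As a description, it was 0.22 and 0.36 log2 units above siCTRL#1 with siVPS4B#1 and siVPS4B#2.

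Folliculin itself did not pass the test in any comparison run. FLCN (NM_144997; chromosome 17, 17115526 to 17140502, minus strand) had condition means between 8.85 and 12.2 CPM, which rest on 32 to 130 reads a library. Its partners did move, and in siVPS4A+B#2 their changes had opposite signs over NT and over siCTRL#1. Neither comparison called both, with FNIP1 called over NT only and FNIP2 over siCTRL#1 only.

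FNIP1 (NM_133372; chromosome 5, 130977407 to 131132710, minus strand) held 85.6, 60.1, 75.9 and 61.6 CPM with siVPS4A+B#1 and 82.2, 75.4, 83.6 and 68.5 with siVPS4A+B#2. NT held 37.6, 40.6, 41.8 and 49.2, and siCTRL#1 52.0, 50.4, 50.5, 53.3 and 65.9. Every library of combined silencing was above NT, and every siVPS4A+B#2 library was above siCTRL#1. The log2 fold changes were 0.72 ± 0.13 and 0.86 ± 0.13 over NT (limma, adjusted p = 1.23e-05 and 4.71e-07), both called. Over siCTRL#1 they were 0.40 ± 0.12 and 0.54 ± 0.12 (adjusted p = 0.00972 and 0.000432), both under the 1.5-fold limit. With single VPS4A duplexes FNIP1 lay within 0.08 log2 units of siCTRL#1. With siCTRL#2 FNIP1 held 53.9 to 69.4 CPM, above NT within all 4 replicate numbers and without overlap. Over siCTRL#2 the changes in the pairs were 0.23 ± 0.13 and 0.37 ± 0.13 (limma, adjusted p = 0.138 and 0.0139). Neither was called, and the libraries overlapped in both.

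FNIP2 (NM_020840; chromosome 4, 159690178 to 159829202, plus strand) held 6.09, 6.40, 10.4 and 6.25 CPM with siVPS4A+B#2, against 15.3, 27.7, 20.0, 14.8 and 26.2 with siCTRL#1. The groups did not overlap, and the change was -1.34 ± 0.16 (SE) log2 units (limma, adjusted p = 8.76e-09). In siVPS4A+B#1 it stood at 13.7, 15.1, 22.7 and 13.0, overlapping siCTRL#1, a change of -0.29 ± 0.16 (adjusted p = 0.156). The difference between the pairs was -1.04 ± 0.17 (limma, adjusted p = 4.89e-06).

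FNIP2 was also lower with siVPS4A+B#2 than with either of its component duplexes. It fell by 0.82 on the log2 scale (SE 0.17; limma, adjusted p = 0.000368) from siVPS4A#1, where it held 12.9, 15.8, 13.1 and 13.7 CPM. It fell by 0.90 (SE 0.17; adjusted p = 2.71e-05) from siVPS4B#2, where it held 12.8, 15.3, 14.7 and 14.1. No library of siVPS4A+B#2 reached these levels. The VPS4B duplexes differed as well, FNIP2 being 0.70 ± 0.17 higher with siVPS4B#1 than with siVPS4B#2 (limma, adjusted p = 0.00152), higher in 4 of 4 replicate numbers and without overlap, where 15.1% of all genes were called.

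FNIP2 also differed between the controls. It was higher with siCTRL#1 than in NT (1.00 ± 0.16, limma adjusted p = 2.23e-05), where 9.05% of all genes were called, and with siCTRL#2 over NT the change was 1.11 ± 0.17 (adjusted p = 1.38e-06). NT held 10.4, 7.71, 8.82 and 10.3 CPM. Against NT, FNIP2 was therefore called up with siVPS4A+B#1 (0.71 ± 0.17, adjusted p = 0.000601) and was -0.33 ± 0.17 with siVPS4A+B#2 (adjusted p = 0.0958, not called). The direction with siVPS4A+B#1 depended on the control, 0.71 over NT and -0.29 over siCTRL#1.

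DEPDC5 (NM_001242896; chromosome 22, 32149853 to 32304019, plus strand), the GATOR1 subunit through which the complex reaches the Rag GTPases, had its lowest mean in siVPS4A+B#2. It held 5.41, 8.33, 6.09 and 10.8 CPM with siVPS4A+B#2, 9.97, 13.2, 12.1 and 17.0 in NT and 7.41, 17.6, 11.5, 7.53 and 14.3 with siCTRL#1. These ranges overlapped, although DEPDC5 was lower than NT within all 4 replicate numbers. The change over NT was -0.72 ± 0.20 (SE; limma, adjusted p = 0.00390), and over siCTRL#1 it was -0.44 ± 0.20 (adjusted p = 0.0651). With siVPS4A+B#1 the changes were -0.37 and -0.09, and neither was called.

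RPTOR (NM_020761; chromosome 17, 78518619 to 78940171, plus strand), the subunit by which mTORC1 binds the Rag GTPases and its substrates, was highest with siVPS4A+B#2. Its libraries held 97.5, 110.2, 110.7 and 108.3 CPM, above the 49.5, 62.2, 54.2, 63.4 and 57.7 of siCTRL#1 and the 53.5, 76.8, 59.7 and 62.3 of NT. The changes were 0.90 ± 0.15 (SE; limma, adjusted p = 3.55e-06) and 0.76 ± 0.15 (adjusted p = 7.96e-05). With siVPS4A+B#1 RPTOR stood at 57.2, 54.6, 63.2 and 74.2 CPM, a change of 0.13 ± 0.15 over siCTRL#1, and the difference between the pairs was 0.77 ± 0.15 (limma, adjusted p = 0.000131).

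RPTOR was also high without VPS4 silencing. In siCTRL#2, a non-targeting duplex, it held 86.8, 95.1, 81.1 and 92.8 CPM, 0.64 ± 0.15 log2 units above siCTRL#1 (limma, adjusted p = 0.000880). In siVPS4A#1 the libraries were spread from 62.9 to 116.0. The change of 0.52 over siCTRL#1 (limma, adjusted p = 0.00397) was under the 1.5-fold limit and not called. The siVPS4A+B#2 libraries were above all those of siCTRL#2, but the difference of 0.26 ± 0.15 was not called (limma, adjusted p = 0.157).

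**Figure D2:**
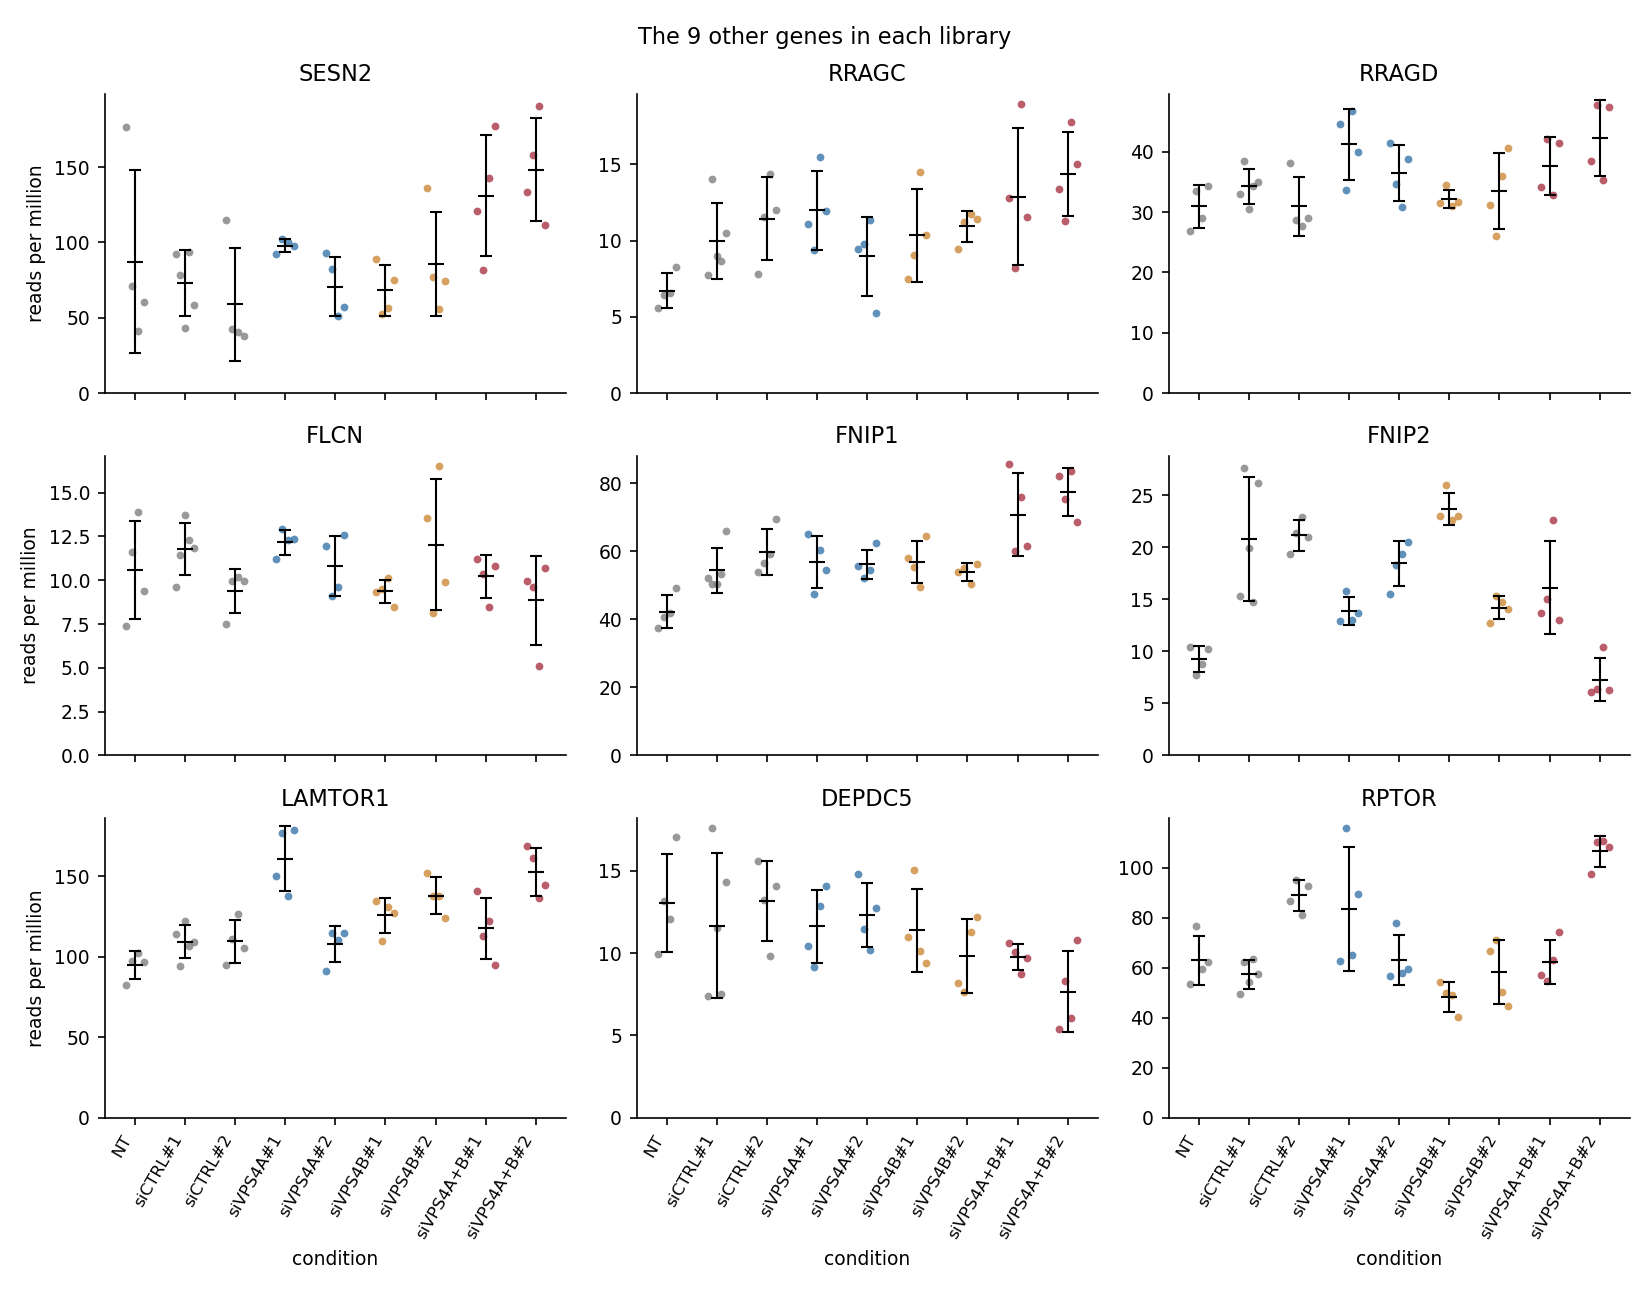
The 9 genes other than CASTOR1 in CPM (TMM-scaled, each linear axis from 0) for each library, by condition; dots are libraries, horizontal bars means and whiskers SD. SESN2 and FNIP1 are highest in the combined conditions, FNIP2 is lowest in siVPS4A+B#2 at 6.09 to 10.4, and RPTOR is highest there at 97.5 to 110.7.

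Counted together without CASTOR1, 4 of the 9 genes were called with siVPS4A+B#1 against NT (SESN2, RRAGC, FNIP1 and FNIP2, all up), where 26.0% of all genes were called. Without replicate 3 it was 2 of 9, FNIP1 and RRAGC. With siVPS4A+B#2 against NT 6 of 9 were called, 5 up (SESN2, RRAGC, FNIP1, LAMTOR1 and RPTOR) and DEPDC5 down, against 28.8% of all genes. Against siCTRL#1 only SESN2 was called with siVPS4A+B#1, against 22.1%, and SESN2, RPTOR and FNIP2 with siVPS4A+B#2, against 28.7%. Without replicate 3 the first of these counts was 0, and without replicate 4 the second was 5. The median change of all 10 genes over siCTRL#1 was 0.13 and 0.51 log2 units in the 2 pairs, beside -0.02 over all genes in both. That median includes CASTOR1, which was selected with siCTRL#1 libraries, and the 9 others were chosen with results known, so it is a description. SESN2 was the one gene of the 9 called up in all 4 comparisons of a pair with NT or siCTRL#1.

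**Figure D3:**
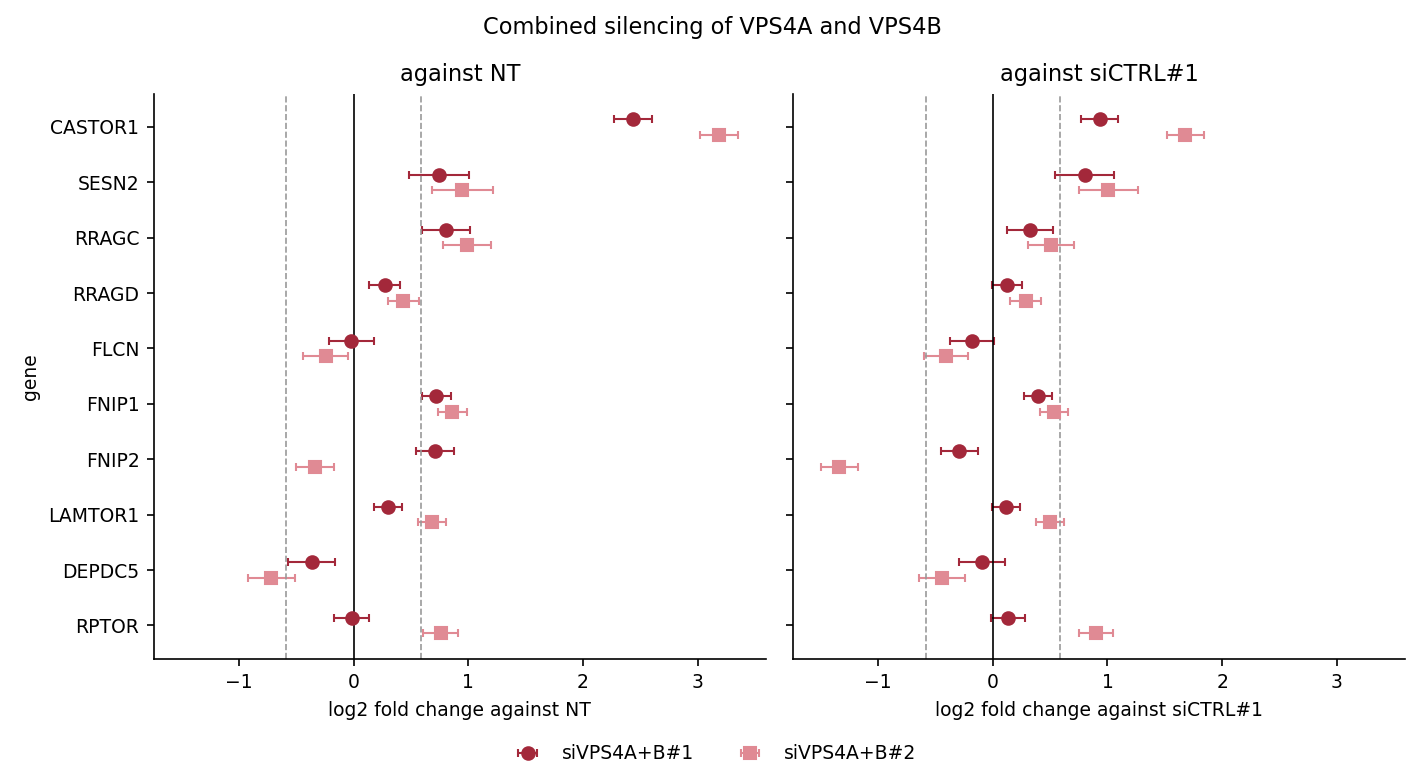
Log2 fold changes of the 10 genes with siVPS4A+B#1 (circles) and siVPS4A+B#2 (squares) against NT (left) and siCTRL#1 (right); whiskers are standard errors and dashed lines mark a 1.5-fold change. CASTOR1 is farthest to the right in both panels, at 2.44 and 3.19 over NT and 0.93 and 1.68 over siCTRL#1, and FNIP2 changes side between the panels for siVPS4A+B#1.

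With siVPS4A#1 against siCTRL#1 none of the 9 was called by limma, while 22.0% of all genes were, and 4 of the 9 (RRAGD, FNIP2, LAMTOR1 and RPTOR) had an unadjusted p under 0.05. LAMTOR1 (0.54), RPTOR (0.52) and FNIP2 (-0.51) also had limma's adjusted p under 0.05, at 0.000308, 0.00397 and 0.00915. They missed the call only on the 1.5-fold limit. edgeR and DESeq2 on the recovered reads called 0 of the 9 as well, while limma called 3 without replicate 1 and 3 without replicate 4. Against siCTRL#2, SESN2 (0.91 ± 0.28) and FNIP2 (-0.62 ± 0.17) were called with siVPS4A#1 (limma, adjusted p = 0.00725 and 0.00320), where 29.9% of all genes were. With siVPS4A#2 none of the 9 was called by limma, edgeR or DESeq2 and 0 had an unadjusted p under 0.05, in a comparison in which 0.0871% of all genes were called. As a description, the 9 genes lay between -0.29 and 0.27 log2 units of siCTRL#1 with siVPS4B#1 and between -0.43 and 0.36 with siVPS4B#2, while 12.9% and 7.57% of all genes were called there.

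Whether a pair exceeded the sum of its single changes was asked with the interaction term. None of the 9 genes was called in siVPS4A+B#1, where 6.20% of all genes were, and none in siVPS4A+B#2, where 18.3% were. In each, 2 of the 9 had an unadjusted p under 0.05, and edgeR and DESeq2 called 0. SESN2 had the largest interaction of the 9 in siVPS4A+B#1, 0.97 ± 0.37 (SE; limma, adjusted p = 0.117), its single changes summing to -0.17 and the pair reaching 0.80. FNIP1 had an interaction of 0.47 ± 0.17 in siVPS4A+B#2 (adjusted p = 0.0485, under the 1.5-fold limit). As a description, CASTOR1 in siVPS4A+B#1 lay at the sum of its single changes (0.93 against 0.89), and in siVPS4A+B#2 it lay 0.93 ± 0.23 below that sum.

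**Figure D4:**
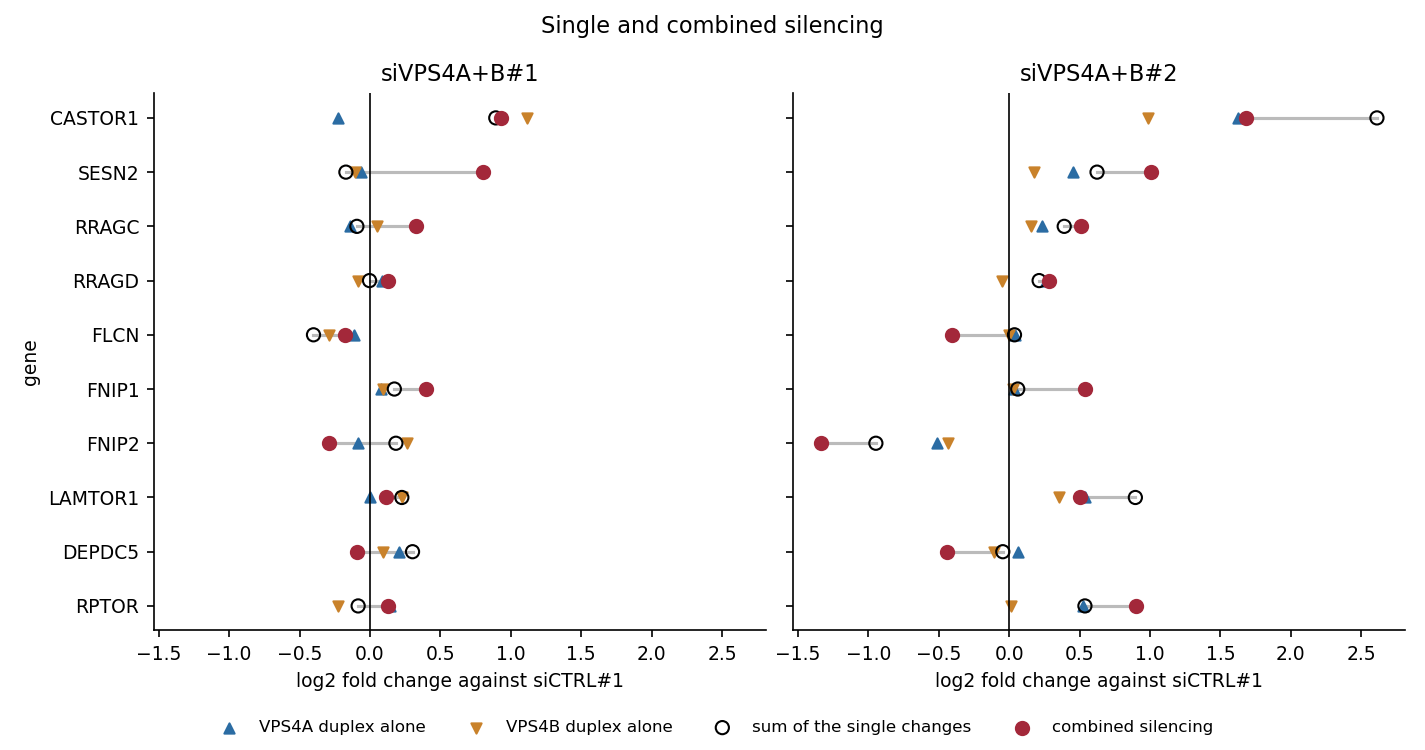
Log2 fold changes against siCTRL#1 of each gene with the VPS4A duplex alone, the VPS4B duplex alone, their sum and the combined silencing, for siVPS4A+B#1 (left) and siVPS4A+B#2 (right); grey lines join the sum to the combined value. For SESN2 in siVPS4A+B#1 the combined value of 0.80 stands apart from a sum of -0.17, and for CASTOR1 in siVPS4A+B#2 the combined value of 1.68 stays below a sum of 2.61.

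Across the 9 condition means the 10 genes had partly parallel patterns. CASTOR1 had a Pearson r of 0.91 with LAMTOR1, 0.77 with RRAGC and 0.74 with RRAGD, and of -0.72 with DEPDC5, -0.14 with FNIP2 and 0.02 with FLCN. RRAGC and FNIP1 had an r of 0.90. These are 9 points from the same libraries, given as a description. Over all 11158 genes with a mean of at least 1 CPM, the 5 most like CASTOR1 were LMBR1L (r = 0.983), CYP4F12 (0.976), CLSTN3 (0.972), C1QTNF6 (0.969) and ST3GAL2 (0.965).

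The surrounding pathway was described through 69 further genes in 9 lists, of which 64 were in the table. Against siCTRL#1, 6 of the 64 were called up and 9 down with siVPS4A+B#1 (22.1% of all genes called) and 8 up and 18 down with siVPS4A+B#2 (28.7%). With siVPS4B#1 it was 7 up and 17 down (12.9%), with siVPS4B#2 4 up and 15 down (7.57%) and with siVPS4A#1 3 up and 25 down (22.0%). Without the replicate block 5, 11 and 9 were called down with siVPS4A+B#1, siVPS4B#1 and siVPS4B#2. With siVPS4A#2 none was called by limma (0.0871% of all genes), and 3 had an unadjusted p under 0.05. Over all genes 1341 rose and 1452 fell with siVPS4A+B#1 and 1618 rose and 2012 fell with siVPS4A+B#2. Scaled by library total these were 818 and 2257, and 1169 and 2551, with the median of all genes at -0.16 and -0.13 log2 units, so directions in the pairs are relative to the TMM scale.

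Among the 6 genes present of the list of sensors and transporters of the sensing machinery, PQLC2 alone was called with siVPS4A+B#1. With siVPS4A+B#2 PQLC2 and SESN1 (1.22 ± 0.14) rose and BMT2 fell. SESN1 and the other genes given for 1 pair only were named after their values were seen. PQLC2, a lysosomal exporter of cationic amino acids, rose in both pairs, by 1.57 ± 0.18 (SE) and 0.91 ± 0.18 log2 units (limma, adjusted p = 6.74e-09 and 8.45e-05). SESN3, a relative of SESN2, and BMT2, the S-adenosylmethionine sensor also known as SAMTOR, rose with both single VPS4B duplexes, SESN3 by 1.22 and 0.76 and BMT2 by 0.69 and 0.74 (SE 0.23 and 0.22). In the pairs SESN3 stood at -0.11 and -0.29, uncalled, and BMT2 fell with siVPS4A+B#2 by 1.08 on the log2 scale (adjusted p = 7.67e-05). The share of all genes called was 22.1% and 28.7% in the pairs, and 12.9% and 7.57% with siVPS4B#1 and siVPS4B#2.

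The counts for the complexes themselves stand beside 22.1% of all genes called with siVPS4A+B#1 and 28.7% with siVPS4A+B#2. Of 6 GATOR1 and KICSTOR genes ITFG2, a KICSTOR subunit, was the one called, with changes of -0.72 ± 0.22 and -0.71 ± 0.22 (limma, adjusted p = 0.00893 and 0.00723). Of 5 GATOR2 genes WDR24 was called with siVPS4A+B#2 (0.66 ± 0.16), and it was 0.52 ± 0.16 with siVPS4A+B#1, under the 1.5-fold limit. Of the 6 other Rag and Ragulator genes LAMTOR4 was called with siVPS4A+B#2, at -0.67 ± 0.21, and stood at -0.41 ± 0.21 with siVPS4A+B#1.

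Of 9 genes of mTORC1, RHEB and the TSC complex, RHEBL1, a relative of the mTORC1 activator RHEB, fell in both pairs (-0.61 ± 0.22 and -0.69 ± 0.22; limma, adjusted p = 0.0270 and 0.00929). Over all genes 22.1% and 28.7% were called in these pairs. With siVPS4A+B#2 the mTORC1 subunit MLST8 (-0.60 ± 0.16) and the inhibitor DEPTOR (-1.12 ± 0.24) fell as well. DEPTOR was up with siVPS4B#1 (0.74 ± 0.24) and siVPS4A#1 (1.29 ± 0.24) alone, while none of the 9 was called with siVPS4B#2. RPTOR rose in the siVPS4A+B#2 libraries, so subunits of one complex went different ways there. Some of these calls were lost when 1 replicate was left out. ITFG2 with siVPS4A+B#2 had an adjusted p of 0.119 without replicate 3, and RHEBL1 one of 0.0646 and 0.175 in the 2 pairs without replicate 1.

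Of the 3 MiT/TFE factors present, TFE3 rose in both pairs, by 1.11 ± 0.16 and 0.91 ± 0.16 log2 units (limma, adjusted p = 7.74e-07 and 1.60e-05). It rose by 0.62 ± 0.16 with siVPS4B#1 and stood at -0.18 ± 0.16 with siVPS4B#2 (limma, adjusted p = 0.512). None of the 3 factors was called with siVPS4B#2. TFEB rose with siVPS4B#1 (0.83 ± 0.20, adjusted p = 0.00212) and was at 0.13 and 0.04 in the pairs, uncalled. Of 8 mTORC1 outputs ULK1, the kinase that starts autophagy, rose with siVPS4A+B#1 (0.75 ± 0.16), and with siVPS4A+B#2 LPIN1, a phosphatidate phosphatase, rose (1.16 ± 0.21) and EIF4EBP2 fell (-0.78 ± 0.13). EIF4EBP1, the translation repressor that mTORC1 phosphorylates, fell with both single VPS4B duplexes (-0.67 ± 0.16 and -0.74 ± 0.16) and was not called in the pairs (-0.26 and -0.37). Over all genes 22.1% and 28.7% were called in the pairs, and 12.9% and 7.57% with siVPS4B#1 and siVPS4B#2.

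Amino acid transporters went both ways. SLC36A1, a lysosomal amino acid transporter also called PAT1, rose in both pairs by 1.31 ± 0.18 and 1.58 ± 0.18 log2 units (limma, adjusted p = 1.60e-07 and 1.50e-09), and SLC38A2, a neutral amino acid transporter of the plasma membrane, by 0.76 ± 0.15 and 0.93 ± 0.15. With single VPS4B duplexes SLC7A11 (-1.75 and -1.17), SLC7A5 (-1.29 and -1.03), SLC3A2 (-0.99 and -0.98) and SLC7A1 (-0.92 and -0.82) fell, the last being a carrier of arginine. SLC36A1 rose with siVPS4B#1 (1.75 ± 0.18) and siVPS4A#1 (1.63 ± 0.17) alone as well. With siVPS4B#2 it stood at 0.25 ± 0.18 (limma, adjusted p = 0.384), uncalled. Of the 10 transporters 1 rose and 4 fell with siVPS4B#1 (12.9% of all genes called), 6 fell with siVPS4B#2 (7.57%), and 1 rose and 8 fell with siVPS4A#1 (22.0%). In the pairs 2 rose and none fell with siVPS4A+B#1 (22.1%), and 2 rose and 3 fell with siVPS4A+B#2 (28.7%).

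The 11 genes of the ATF4 and stress list present, which include enzymes of serine and asparagine synthesis, were mostly called down. With siVPS4A+B#1 7 fell and 1 rose, and with siVPS4A+B#2 8 fell and 1 rose, while 22.1% and 28.7% of all genes were called in either direction. With siVPS4B#1, siVPS4B#2 and siVPS4A#1 9, 7 and 10 fell and none rose, while 12.9%, 7.57% and 22.0% of all genes were called. PCK2, the mitochondrial PEP carboxykinase, changed by -1.73 ± 0.24 and -2.88 ± 0.24 in the pairs, PHGDH, the first enzyme of serine synthesis, by -1.57 ± 0.24 and -1.95 ± 0.24, and ASNS, asparagine synthetase, by -1.67 ± 0.25 and -1.07 ± 0.25 (limma, adjusted p between 1.48e-12 and 0.000623). ATF3 went the other way in the pairs, up by 1.64 ± 0.25 and 2.31 ± 0.25. It changed by -1.35 with siVPS4B#1 and by -0.47 with siVPS4B#2, the latter uncalled.

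SESN2, itself an ATF4 target, rose in the pairs beside falling ATF4 targets, as ATF3 did. The list was chosen with earlier results of these samples known, so its direction is not independent evidence. CHAC1, a glutathione-degrading enzyme, changed by -2.13 ± 0.34 and -1.29 ± 0.34 with the single VPS4B duplexes and by -1.15 and -0.90 in the pairs.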

How the data were processed

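RNA of HCT116 cells was amplified with the Ion AmpliSeq transcriptome panel and sequenced on an Ion Proton by the authors, aligned to the hg19 transcripts of the panel and, per the submitters' processing notes, counted with HTSeq 0.6.0 (DESeq2 1.18.1 is also named there). For each of 12627 genes the deposited signal gives the fraction of a library's reads that fell on it, and every library adds up to 1. The share of 1 read was found from the low values of each library and reads were recovered by division. Of the nonzero values 50.4% are printed finely enough to be placed within 0.1 read, and 100% of these were whole. Floors cover counting error only, because reads were amplified without molecular identifiers.

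Libraries were grouped by the GEO labels, and 37 of 38 were used. Tests used log2(CPM + 1), CPM being reads per 1000000 after TMM scaling, so fold changes are on that scale and understate changes of low genes. limma was fitted over 9 conditions, blocked by replicate number, with an intensity trend in the variance, with 2-sided tests and Benjamini-Hochberg adjustment over all genes. Calls needed an adjusted p under 0.05 together with a 1.5-fold change or more. CASTOR1 alone was also tested by 2-sided exact permutation of the library labels, adjusted over 6 comparisons.

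The labels give the replicate numbers as batches. Deviations from the condition means correlated by 0.17 on average between 137 pairs of libraries with the same number and by -0.078 between 529 pairs with different numbers. The block was kept in the model for this reason, as in the study's methods.

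The members and lists were chosen with earlier results of these data known. Named pathway genes are those called in the same direction in both pairs, or with both single VPS4B duplexes, against siCTRL#1, at most 4 a list by mean size of change, and genes like CASTOR1 are the 5 with the highest Pearson r over condition means. The comparisons between duplexes of one target, the alternatives for pathway genes and the 2-fold limit for CASTOR1 were chosen after seeing the data. Alternatives were edgeR's quasi-likelihood test and DESeq2 on recovered reads, no block, other scalings, a pseudocount of 0.1, a filter on low values, a 2-fold limit, the compared conditions only, the left-out library kept, and each replicate number left out. On simulated reads for 12627 genes, limma called 98% of genes raised 2-fold. The changes were placed in siVPS4A+B#1 only, in genes above a minimum mean level, and no batch effect was simulated. That share does not speak for changes under 2-fold or for every comparison. Promoters came from RefSeq (GRCh38.p14) and gene positions from GENCODE on GRCh37.

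Tests ran in limma 3.58.1, edgeR 4.0.16 and DESeq2 1.42.0 under R 4.3.3, permutations in scipy 1.17.1 under Python 3.11.15, and figures in matplotlib 3.10.9.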

Additional observations from a re-analysis of the deposited data

Results flagged for a closer look

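Of 90 groups of libraries, each of the 10 genes in each of the 9 conditions, 7 held a library far from the others in CPM by Dixon's criterion, where chance flags about 1 in 20 groups (4.5 of 90). SESN2 stood at 115.1 in siCTRL#2 replicate 1 with the others at 37.7 to 42.3, RRAGD at 38.2 in the same library with the others at 27.7 to 29.1, and FLCN at 7.50 there with the others at 9.94 to 10.2. FNIP1 stood at 65.9 in siCTRL#1 replicate 5 with the others at 50.4 to 53.3. FNIP2 stood at 26.0 in siVPS4B#1 replicate 2 with the others at 22.7 to 23.0, and at 10.4 in siVPS4A+B#2 replicate 3 with the others at 6.09 to 6.40. RPTOR stood at 77.9 in siVPS4A#2 replicate 2 with the others at 56.7 to 59.4.

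Duplexes against the same targets differed in limma's test of the difference itself for 3 genes. Between siVPS4A+B#2 and siVPS4A+B#1 the log2 difference was 0.75 for CASTOR1, -1.04 for FNIP2 and 0.77 for RPTOR. Between siVPS4A#1 and siVPS4A#2 it was 1.85 for CASTOR1, and between siVPS4B#1 and siVPS4B#2 it was 0.70 for FNIP2.

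The library labelled siVPS4A#1 replicate 2 entered no comparison. Scaled by its total it held CASTOR1 at 16.4 CPM (11 reads), above the highest control library at 11.9, and FLCN at 16.4 (11 reads), above the highest control library at 13.9.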

How the results depend on the processing

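No result was reversed under any alternative run, and the 6 tested CASTOR1 comparisons kept their side of the threshold except that siVPS4A#2 against siCTRL#2, a log2 difference of 0.69, lay under a limit of 2-fold. Below, counts are of the members called, without CASTOR1 where libraries of its selection took part. A limit of 2-fold gave 0 in both pairs against NT, 0 with siVPS4A+B#1 against siCTRL#1, 1 against siVPS4A#2 and 0 against siVPS4B#1, 0 with siVPS4A+B#2 against siVPS4A#1 and against siVPS4B#2, 1 between the pairs and 0 between the VPS4B duplexes, since most called changes lay under 2-fold. Of all 12627 genes this limit called 1086 and 1301 in the pairs against NT, and 831 with siVPS4A+B#1 against siCTRL#1. Against siVPS4A#2 and siVPS4B#1 it called 953 and 287 of all genes with siVPS4A+B#1. With siVPS4A+B#2 it called 563 against siVPS4A#1 and 1024 against siVPS4B#2. Between the pairs it called 553, and between the VPS4B duplexes 382. Scaling by library total gave 1 with siVPS4A#1 against siCTRL#1, 2 against siVPS4A#2, 3 with siVPS4A+B#2 against siVPS4A#1 and 2 with siVPS4A+B#1 against siVPS4B#1. Without the replicate block, the pairing by batch, the last of these was 0. A pseudocount of 0.1 made it 2. DESeq2 gave 2 with siCTRL#1 against NT. A fit on the compared conditions only gave 1 for the interaction in siVPS4A+B#1 and 2 with siVPS4A#1 against siVPS4A#2. Of all genes, scaling by library total called 2845, 2953, 2512 and 1518 in its comparisons, in the order given. In the last of those the fit without the block called 1141 and the pseudocount of 0.1 called 1365. DESeq2 called 1264, and the compared conditions alone called 689 and 2728. The block changed no other count by over 1.5 times apart from those of the pathway genes. For the 64 pathway genes against siCTRL#1, dropping the block gave 5 down with siVPS4A+B#1, 11 with siVPS4B#1 and 9 with siVPS4B#2, and 2 up with siVPS4B#2. Scaling by library total gave 15 down with siVPS4A+B#1. The 2-fold limit gave 5 down with siVPS4A+B#1, 4 up and 9 down with siVPS4A+B#2, 2 up and 9 down with siVPS4B#1, and 0 up and 8 down with siVPS4B#2. Of all genes it called 831, 1309, 374 and 127 in these comparisons. Dropping the block called 2682 with siVPS4A+B#1, 1523 with siVPS4B#1 and 763 with siVPS4B#2. Scaling by library total called 3075 with siVPS4A+B#1. Leaving out each replicate number in turn, the members called ranged from 2 to 4 with siVPS4A+B#1 against NT, 0 to 2 against siCTRL#1, 1 to 3 against siVPS4A#2 and 0 to 1 against siVPS4B#1, from 3 to 5 with siVPS4A+B#2 against siCTRL#1 and 1 to 2 against siVPS4A#1, from 0 to 3 with siVPS4A#1 against siCTRL#1 and 1 to 2 against siVPS4A#2, and from 0 to 1 for each interaction. Of all genes, these fits called 3267 to 3403, 2564 to 3008, 2815 to 3218 and 910 to 1446 with siVPS4A+B#1, in the same order. With siVPS4A+B#2 they called 3620 to 3796 and 1959 to 2408, and with siVPS4A#1 2672 to 2938 and 2706 to 2941. For the interactions it was 363 to 734 and 1577 to 2095. Pathway genes called down ranged from 5 to 13 with siVPS4A+B#1 and 11 to 16 with siVPS4B#1, and those called up from 4 to 7 with siVPS4B#1, with the lowest values without replicate 4 for the first 2 and without replicate 3 for the last. With siVPS4B#1 against siCTRL#1 these fits called 1516 to 1718 of all genes. The causes were not tested. Genes near 10 CPM (RRAGC, FLCN, FNIP2 and DEPDC5) rest on 30 to 277 reads a library, which limits their precision.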
